A study of Sus scrofa with 15 samples.

Results

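A set of 10 genes encoding angiogenic growth factors and regulators of the response to low oxygen was followed in the backfat of Iberian pigs fed olive by-products. The set was named by gene symbol and comprised the vascular endothelial growth factors VEGFA, VEGFB and VEGFC, the placental growth factor PGF, the angiopoietins ANGPT1 and ANGPT2, adrenomedullin (ADM), the hypoxia-inducible factor subunits HIF1A and EPAS1, and the oxygen sensor EGLN3. Of these, 9 were found among the 30477 gene identifiers in the files and all 9 passed the filter on low counts, which left 14918 genes to test. VEGFB was not analysed here, because the identifier paired with its symbol was not among them. RNA was sequenced from biopsies of subcutaneous fat taken from the back of 15 Iberian pigs of about a year of age, at the end of the growing period. The 5 pigs of the control group (C) ate compound feed, and the 5 of the DOP group ate compound feed made with dry olive pulp. The 5 of the WCOC group ate compound feed without the by-product, together with freely offered silage of wet crude olive cake and barley straw. Each diet was given in a pen of its own, so that pen and diet cannot be told apart. The compound feed was rationed to a higher share of free energy intake in C than in both olive diets. Against C, ration and diet therefore cannot be told apart either. The 5 pigs of each group were chosen for the amount and quality of their RNA.

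Adipose tissue needs a dense capillary bed, and fat cells and stromal cells release factors that build and maintain it. VEGFA acts on the receptors FLT1 and KDR of endothelial cells, PGF acts on FLT1, and VEGFC acts mainly on lymphatic endothelium through FLT4. ANGPT1 stabilises vessels through the receptor TEK, and ANGPT2, made largely by endothelial cells, antagonises ANGPT1 in many settings. Under normal oxygen the prolyl hydroxylases, EGLN3 among them, mark the alpha subunits HIF1A and EPAS1 (HIF-2 alpha) for destruction. Under low oxygen these proteins persist and switch on target genes that include VEGFA, ADM and EGLN3 itself. HIF activity is thus set mainly at the protein level, which RNA-seq does not measure.

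Gene counts ranged from 22373715 to 34745218 per library, and the lowest count of any of the 9 genes in any library was 40, for EGLN3. The adipocyte markers were abundant in every library, with a summed level between 12570 and 22070 CPM, that is, counts scaled to a common library size by TMM. Some biopsies carried other tissue. The 4 skeletal muscle markers that could be matched summed to 43780 CPM in DOP replicate 5, 9373 CPM in DOP replicate 2 and 5689 CPM in DOP replicate 4, against at most 3555 CPM in any C library and 683.5 CPM in any WCOC library. The 10 macrophage markers summed to 230.4 to 696.1 CPM in C (540.2 and 696.1 CPM in replicates 3 and 5), 131.2 to 314.7 CPM under DOP and 118.7 to 250.9 CPM under WCOC. By the DEG rule defined below, 7 of these 10 were lower in WCOC vs. C, beside 3.93% of all genes tested. The lowest adjusted p were those of CD68 (log2FC −2.11), MSR1 (log2FC −2.68), ITGAM (log2FC −1.42) and AIF1 (log2FC −1.08). In DOP vs. C, 1 of the 10, MSR1, was lower (log2FC −3.18), where 0.764% of all genes were DEGs. Among the adipocyte markers, ADIPOQ was higher in WCOC than in C (log2FC 0.66), and LEP (log2FC 1.08) and PLIN4 (log2FC 0.70) were higher in WCOC than in DOP. Of the 8 adipocyte markers, 6 had a log2FC above 0 in each of these comparisons. CIDEC went the other way, with a mean of 442.3 CPM in WCOC against 578.6 CPM in C and 631.9 CPM in DOP. So did FABP4, with 3362 CPM in WCOC against 3431 CPM in C and 3840 CPM in DOP. The muscle genes TNNT3 (log2FC −5.48) and DES (log2FC −5.001) and the macrophage gene CD163 (log2FC −1.30) were lower in WCOC than in DOP. Per length, the most abundant marker of each cell type was ADIPOQ for adipocytes, PECAM1 for endothelium, RGS5 for pericytes and smooth muscle, CSF1R for macrophages, ACTA1 for muscle and HBB for red blood cells. The DOP libraries and C replicate 5 were run on a flow cell of their own, so that for DOP vs. C the diet can hardly be told apart from the sequencing run. The WCOC libraries were all on the other flow cell, with C replicates 1 to 4, so WCOC vs. DOP is also a comparison between flow cells. A fit with the flow cell as a covariate estimates its effect only from C replicate 5 against C replicates 1 to 4.

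The genes lie on 6 chromosomes of the Sscrofa11.1 assembly. VEGFA (chr7:38746393-38762282), PGF (chr7:98149510-98162784) and EGLN3 (chr7:65805513-65833536) share chromosome 7. VEGFC (chr15:39037764-39136234) and ANGPT2 (chr15:37544177-37600925) share chromosome 15, ANGPT2 lying inside the span of MCPH1. ADM (chr2:49229223-49231521) is a compact gene with 1493 exonic bases. ANGPT1 (chr4:29925203-30233434), HIF1A (chr1:190625436-190673926) and EPAS1 (chr3:94167759-94253662) complete the set, the HIF1A and EPAS1 spans each overlap a locus without an assigned name, and VEGFA overlaps a transfer RNA gene. The reads were aligned as strand-specific, but the strand setting of the counting step is not given in the sources used here, so the values of VEGFA, ANGPT2, HIF1A and EPAS1 are uncertain to the extent that reads fell in these overlaps. HIF dimers bind the short core ACGTG or GCGTG, and the 250 bases before the RefSeq start of each gene were searched for both cores on both strands. ADM, the gene that passed the test below, is shown with its match in capitals (an ACGTG core on the minus strand of the gene, therefore printed as CACGT), next to EGLN3, another established HIF target, in which neither core was found. The ADM window is chr2:49231522-49231771, minus strand, and the EGLN3 window chr7:65805263-65805512, plus strand.
ADM: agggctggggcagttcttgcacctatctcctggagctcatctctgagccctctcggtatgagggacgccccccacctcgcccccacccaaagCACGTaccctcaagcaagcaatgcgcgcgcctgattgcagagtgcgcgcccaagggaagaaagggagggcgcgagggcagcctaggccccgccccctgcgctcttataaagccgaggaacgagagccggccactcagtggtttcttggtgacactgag
EGLN3: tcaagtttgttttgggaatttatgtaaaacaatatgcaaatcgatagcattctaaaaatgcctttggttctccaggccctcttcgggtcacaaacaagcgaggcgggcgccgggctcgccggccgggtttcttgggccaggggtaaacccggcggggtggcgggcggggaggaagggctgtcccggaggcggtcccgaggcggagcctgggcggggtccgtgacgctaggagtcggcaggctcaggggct
A core was present in 3 of the 10 windows (VEGFB, PGF and ADM), beside 43.5% of 19525 promoter windows of the same length in the genome. These are descriptions of the letters in the window and do not show binding.

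The plot of CPM by library gives the level of each gene in each pig.

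**Figure D1:**
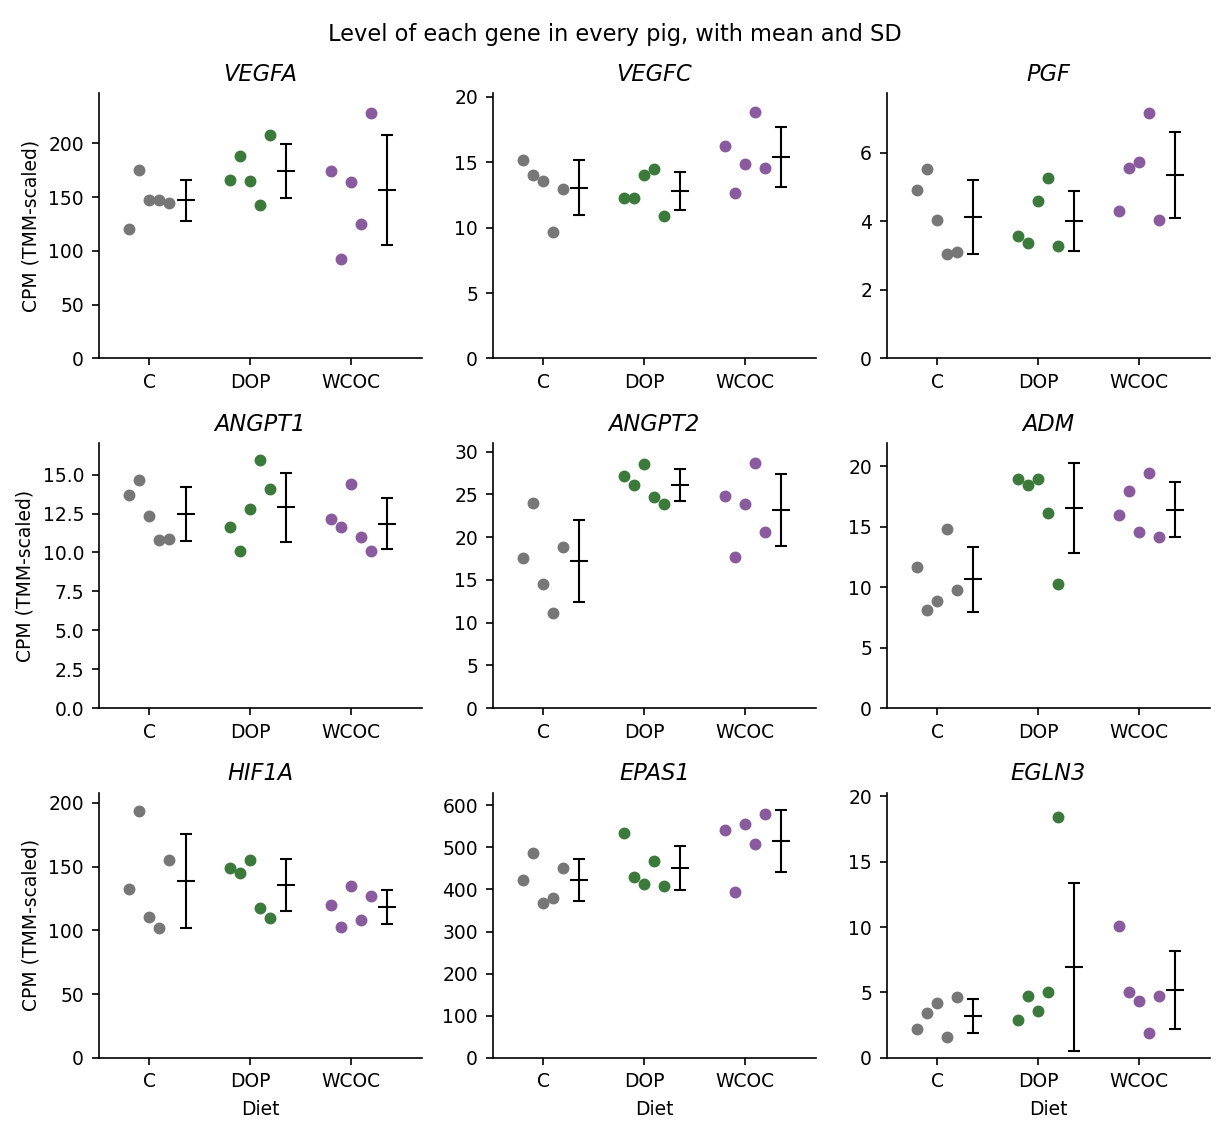
TMM-scaled CPM (y axis, a separate scale per gene) of the 9 genes in the 15 backfat libraries, by diet (x axis), each point a pig and each bar the mean with its SD (n = 5 per diet). ADM ran from 8.12 to 14.8 CPM in C and from 14.1 to 19.5 CPM in WCOC, and the single high EGLN3 point at 18.4 CPM is DOP replicate 5.

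Divided by exonic length, as a rough comparison between genes, EPAS1 was the most abundant, at 162.1 ± 23.9 CPM per kb (SD, n = 15 libraries). Counts were made on Ensembl genes and the lengths are unions of RefSeq exons, so the order of the genes is approximate. VEGFA followed with 49.8 ± 10.7 CPM per kb and HIF1A with 45.8 ± 8.86 CPM per kb, and these did not separate, since VEGFA was above HIF1A in only 9 of 15 libraries. ADM reached 9.74 ± 2.64 CPM per kb. The remaining genes lay close together, with PGF at 2.74 ± 0.72, ANGPT2 at 2.32 ± 0.547, ANGPT1 at 2.29 ± 0.331, VEGFC at 1.90 ± 0.305 and EGLN3 at 1.59 ± 1.30 CPM per kb. The ranges of EPAS1 and VEGFA, of HIF1A and ADM, and of ADM and PGF did not overlap, whereas each other pair of neighbours in this order overlapped across the libraries.

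ADM passed the test in WCOC vs. C, where its level was 1.54-fold higher, and none of the other 8 genes passed it by edgeR in any of the 3 comparisons. A DEG is here a gene with an adjusted p under 0.05 (edgeR quasi-likelihood test, Benjamini-Hochberg over all genes tested) and a log2FC of at least 0.58 in either direction. In WCOC vs. C, 1 of the 9 genes was a DEG, beside 6.25% of all genes tested (2.33% higher and 3.93% lower), and 3 of the 9, ADM, ANGPT2 and EPAS1, had an unadjusted p under 0.05, beside 26.4% of all genes. In DOP vs. C, edgeR called 0 of the 9, beside 0.764% of all genes tested. There, 2 of them, ANGPT2 and ADM, had an unadjusted p under 0.05, beside 17.6% of all genes, and both were called by DESeq2 and neither by limma-voom. In WCOC vs. DOP, 0 of the 9 were called by edgeR, DESeq2 or limma-voom, beside 7.76% of all genes by edgeR (2.65% higher and 5.11% lower), and 0 had an unadjusted p under 0.05, beside 28.1%. The median log2FC over the 9 was 0.09 in DOP vs. C (0.01 over all genes tested), 0.29 in WCOC vs. C (0.00433 over all genes) and −0.12 between the olive diets (0.000619 over all genes). In none of the 9 genes did the libraries of any pair of diets separate without overlap, while 3.47% of all genes did so in DOP vs. C, 7.62% when the WCOC and C diets were compared, and 8.9% when both olive diets were.

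**Figure D2:**
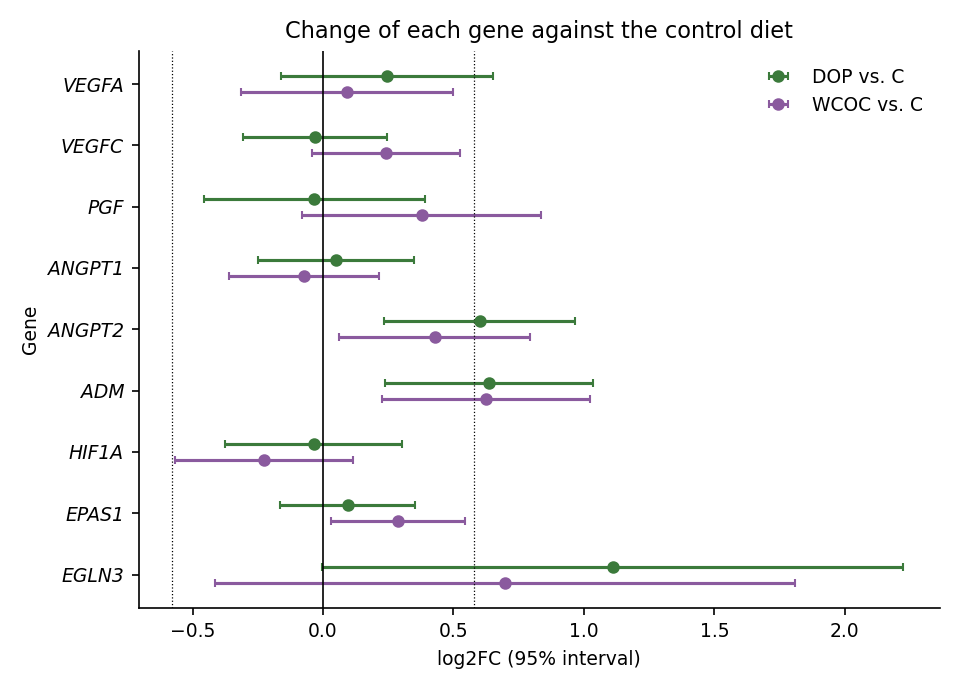
Log2FC (x axis) of each gene (y axis) in DOP vs. C and WCOC vs. C, with its 95% interval from the edgeR fit (bars; 5 libraries per diet) and dotted lines at the fold limit of 0.58. The intervals of ADM and ANGPT2 lie above 0 in both comparisons, that of EPAS1 in WCOC vs. C only, and those of EGLN3 are the widest.

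VEGFA, the main attractant of blood vessels, did not pass the test in any comparison. Its level was 120.8, 174.8, 147.4, 146.9 and 144.9 CPM in C replicates 1 to 5, 166.2, 188.5, 165.3, 142.7 and 207.9 CPM in DOP, and 174.5, 92.1, 163.9, 124.9 and 227.9 CPM in WCOC. The WCOC pigs held both the lowest and the highest value of the series, and their SD of 51.5 CPM was above the 19.2 CPM of C and the 24.9 CPM of DOP, a spread that was not tested. The log2FC was 0.24 ± 0.19 (SE) in DOP vs. C (adjusted p = 0.549) and 0.09 ± 0.19 in WCOC vs. C (adjusted p = 0.796). The 95% intervals, from −0.16 to 0.65 and from −0.31 to 0.50, leave room for changes of either sign.

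The lymphatic factor VEGFC and the placental factor PGF were lower in level than VEGFA and also did not pass. VEGFC lay between 9.66 and 15.2 CPM in C, between 10.9 and 14.5 CPM in DOP and between 12.7 and 18.8 CPM in WCOC, with log2FC of −0.03 ± 0.13 in DOP vs. C (adjusted p = 0.933) and 0.24 ± 0.13 in WCOC vs. C (adjusted p = 0.263). PGF was 4.91, 5.51, 4.05, 3.04 and 3.12 CPM in C, 3.58, 3.36, 4.599, 5.26 and 3.28 CPM in DOP, and 4.29, 5.54, 5.71, 7.15 and 4.04 CPM in WCOC. The ranges of the diets overlapped, although the highest 3 values were all from WCOC pigs. Its log2FC was −0.03 ± 0.20 in DOP vs. C (adjusted p = 0.955) and 0.38 ± 0.21 in WCOC vs. C (adjusted p = 0.278).

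The angiopoietins differed from each other in how they sat across the diets. ANGPT1, the stabilising ligand, was between 10.8 and 14.7 CPM in C, between 10.1 and 15.9 CPM in DOP and between 10.1 and 14.4 CPM in WCOC, with log2FC of 0.05 ± 0.14 (adjusted p = 0.896) and −0.07 ± 0.14 (adjusted p = 0.774) against C. ANGPT2 was 17.5, 24.1, 14.6, 11.2 and 18.9 CPM in C, 27.2, 26.1, 28.6, 24.7 and 23.9 CPM in DOP, and 24.9, 17.7, 23.9, 28.7 and 20.7 CPM in WCOC. All DOP libraries but replicate 5 (23.9 CPM) were above every C library, C replicate 2 (24.1 CPM) being the one that reached into the DOP range, and WCOC overlapped both diets. The log2FC was 0.60 ± 0.17 in DOP vs. C (adjusted p = 0.107) and 0.43 ± 0.17 in WCOC vs. C (adjusted p = 0.128) with edgeR. DESeq2 gave an adjusted p of 0.0277 for DOP vs. C, and without C replicate 2 the edgeR value was 0.0431. On the flow cell that held the DOP libraries, the single C library was at 18.9 CPM, below all 5 DOP libraries.

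Within a library, the ratio of ANGPT2 to ANGPT1 (CPM per kb) does not depend on the scaling between libraries. The size of such a ratio depends on the lengths used, while its log2 difference between diets does not. The C pigs had a ratio of 0.78 ± 0.171, the DOP pigs 1.18 ± 0.249 and the WCOC pigs 1.12 ± 0.239 (SD, n = 5 each), and the 3 ranges overlapped. On the log2 scale the mean ratio was 0.60 higher in DOP and 0.53 higher in WCOC than in C. These ratios were chosen after the levels had been seen, and are given without a test.

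**Figure D3:**
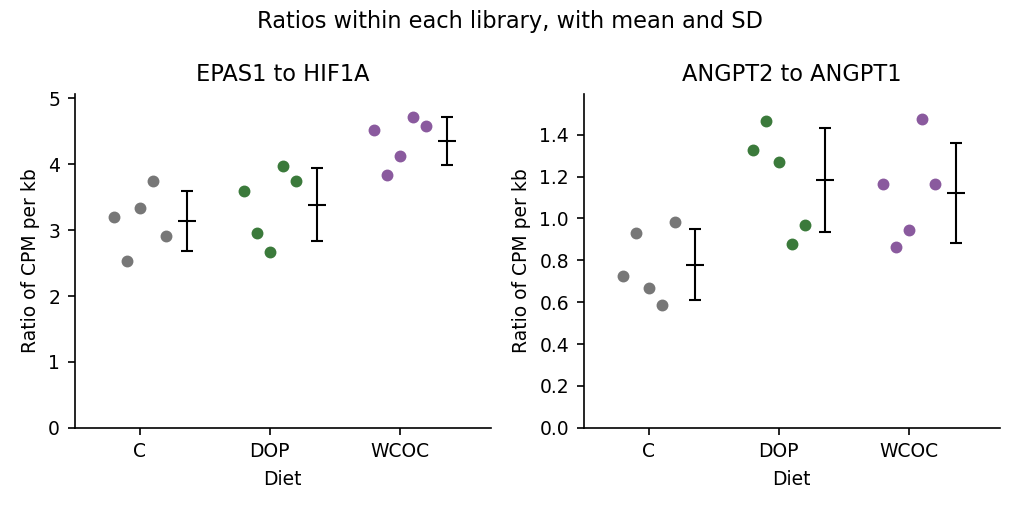
Ratios of EPAS1 to HIF1A (left) and of ANGPT2 to ANGPT1 (right), each of CPM per kb within a library (y axes), by diet (x axes), with each pig as a point and the mean with its SD beside it (n = 5). The EPAS1 to HIF1A ratio of the WCOC pigs began at 3.83, above the highest C pig at 3.74, whereas the ANGPT2 to ANGPT1 ratios of the 3 diets overlap.

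ADM, a vasodilator peptide that promotes vessel growth and barrier function, had the lowest adjusted p of the set in WCOC vs. C. Its level was 11.7, 8.12, 8.86, 14.8 and 9.77 CPM in C, 18.9, 18.5, 18.98, 16.2 and 10.2 CPM in DOP, and 15.9, 17.97, 14.5, 19.5 and 14.1 CPM in WCOC. All WCOC pigs but replicates 3 and 5 exceeded the highest C pig, replicate 4 (14.8 CPM), and all DOP pigs but replicate 5 did so. The means were 10.7 ± 2.69 CPM in C, 16.6 ± 3.71 CPM in DOP and 16.4 ± 2.28 CPM in WCOC. The log2FC was 0.62 ± 0.19 in WCOC vs. C (adjusted p = 0.0473) and of like size, 0.64 ± 0.19, in DOP vs. C (adjusted p = 0.114, or 0.0325 with DESeq2). The difference between both olive diets was −0.01 ± 0.19 (adjusted p = 0.975), with a 95% interval from −0.41 to 0.38.

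The call of ADM in WCOC vs. C stood close to the threshold. Of 10 fits that each left out a library, 1 kept it, the one without C replicate 4, and the adjusted p ranged from 0.022 to 0.128 while the log2FC stayed between 0.54 and 0.77. On the flow cell that held the WCOC libraries and C replicates 1 to 4, the log2FC was 0.58 (adjusted p = 0.1), and on the other flow cell the single C library (9.77 CPM) was below all 5 DOP libraries. Without the macrophage-rich C replicates 3 and 5 it was 0.51 (adjusted p = 0.24).

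Endothelial markers lay on the same side of 0 as ADM and ANGPT2. All 8 endothelial markers tested had a log2FC above 0 in both comparisons with C, beside 52.1% of all genes in DOP vs. C and 50.7% in WCOC vs. C. Among them the transcription factor ERG (log2FC 0.64, adjusted p = 0.00176) and the junction protein CLDN5 (log2FC 0.75, adjusted p = 0.0123) were DEGs in WCOC vs. C, 2 of 8 beside 6.25% of all genes, and all 8 had an unadjusted p under 0.05, beside 26.4%. In DOP vs. C edgeR and limma-voom called 0 of the 8 and DESeq2 called 1, and 6 had an unadjusted p under 0.05, beside 17.6% of all genes. The summed level of these markers ran from 976.6 to 1228 CPM in C, from 1266 to 1638 CPM in DOP and from 1168 to 1787 CPM in WCOC, and that of the 8 adipocyte markers from 12570 to 16720, from 15180 to 19770 and from 15590 to 22070 CPM. In bulk tissue, more cells of a type and more RNA per cell cannot be told apart, and the part of these shifts in the diet differences of ADM and ANGPT2 was not tested. Their relations with the marker sums from pig to pig are given below.

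**Figure D4:**
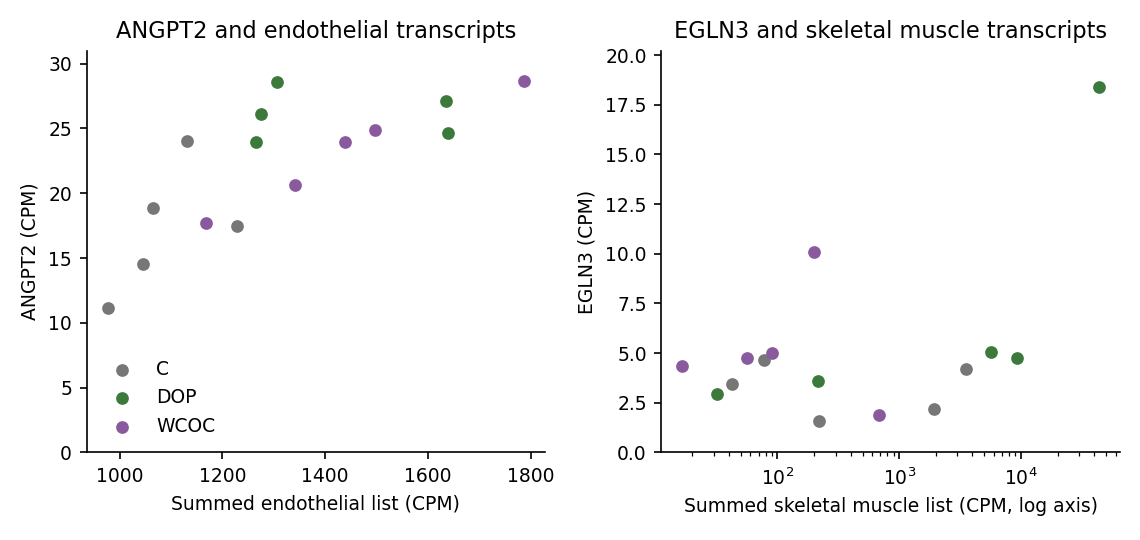
Left, ANGPT2 (y axis, CPM) against the summed endothelial markers (x axis, CPM); right, EGLN3 (y axis, CPM) against the summed skeletal muscle markers (x axis, CPM, log scale), each point a library coloured by diet. The endothelial sums of the DOP pigs begin at 1266 CPM, above the highest C pig at 1228 CPM, and the isolated point on the right is DOP replicate 5, at 43780 CPM of muscle markers and 18.4 CPM of EGLN3.

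The 2 HIF alpha subunits were on opposite sides of 0 in WCOC vs. C, and neither passed the test. HIF1A was 132.6, 193.3, 110.5, 101.8 and 155.1 CPM in C, 149.0, 144.9, 155.3, 117.5 and 109.5 CPM in DOP, and 119.9, 102.8, 135.1, 108.0 and 126.6 CPM in WCOC. Its log2FC was −0.04 ± 0.16 in DOP vs. C (adjusted p = 0.941) and −0.23 ± 0.16 in WCOC vs. C (adjusted p = 0.387), the C group having the widest spread. EPAS1, which is prominent in endothelial cells and adipocytes, was 423.5, 487.8, 367.3, 380.5 and 451.2 CPM in C, 535.2, 428.5, 413.2, 466.8 and 408.6 CPM in DOP, and 540.4, 393.1, 556.5, 508.9 and 578.1 CPM in WCOC. All WCOC pigs but replicate 2 were above every C pig. The log2FC of EPAS1 was 0.09 ± 0.12 in DOP vs. C (adjusted p = 0.744) and 0.29 ± 0.12 in WCOC vs. C (adjusted p = 0.145).

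The ratio of EPAS1 to HIF1A within a library separated WCOC from C. It was 3.20, 2.53, 3.33, 3.74 and 2.91 in C and 4.52, 3.83, 4.12, 4.72 and 4.57 in WCOC, and the mean was 3.14 ± 0.455 for the C diet, 3.39 ± 0.553 for DOP and 4.35 ± 0.366 for WCOC (SD, n = 5 each). Every WCOC pig was above every C pig, with a mean log2 difference of 0.48 (1.39-fold), whereas DOP, from 2.67 to 3.98, overlapped both. Left-out libraries moved the log2 difference between 0.40 and 0.54, and it was 0.45 on the shared flow cell alone. This ratio too was chosen after the levels had been seen, so its values are a description.

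EGLN3, the prolyl hydroxylase whose RNA follows HIF activity in many cell types, was the scarcest gene of the set per length and the one with the widest intervals. It was 2.21, 3.46, 4.21, 1.56 and 4.64 CPM in C, 2.93, 4.76, 3.58, 5.07 and 18.4 CPM in DOP, and 10.1, 5.02, 4.34, 1.91 and 4.75 CPM in WCOC. A single pig per olive diet, DOP replicate 5 and WCOC replicate 1, stood well above the rest, and the other libraries of the 3 diets overlapped. The log2FC was 1.11 ± 0.52 in DOP vs. C (adjusted p = 0.285) and 0.70 ± 0.52 in WCOC vs. C (adjusted p = 0.418). Without DOP replicate 5, the library with the most muscle transcripts, the DOP value was 0.34, and without the 3 muscle-rich DOP libraries it was 0.02. In DOP replicate 5 ADM was the lowest of the DOP group. With the diet means removed, EGLN3 and the summed muscle markers had r = 0.348 (permutation p = 0.298, adjusted p = 0.825, n = 15 libraries). Without the 2 libraries farthest from the median of EGLN3, r was 0.046. Among the DOP pigs alone r was 0.819, against −0.112 among the C pigs and −0.324 among the WCOC pigs. WCOC replicate 1, at 10.1 CPM of EGLN3, held 199 CPM of muscle markers, and DOP replicate 2, at 4.76 CPM, held 9373 CPM. The part of muscle RNA in the EGLN3 values was not tested.

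From pig to pig, with the diet means removed, none of the 36 pairs of genes passed the adjustment for multiple tests. The pair with the strongest relation was ADM and EGLN3, which ran against each other (Pearson r = −0.811, permutation p = 0.0028, adjusted p = 0.0605, Spearman rho = −0.857, permutation p = 0.00163, adjusted p = 0.0583, n = 15 libraries). Without the 2 libraries farthest from the median of ADM, r was −0.646. ANGPT2 and HIF1A had r = 0.769 (adjusted p = 0.0605), which was 0.511 without the 2 farthest libraries and 0.19 among the WCOC pigs alone. ANGPT2 and VEGFC had r = 0.747 (adjusted p = 0.0605), which was 0.533 without the 2 farthest libraries. Against the summed marker lists, 0 of 36 relations passed. The highest was that of VEGFC with the endothelial markers (r = 0.747, permutation p = 0.00279, adjusted p = 0.1), and HIF1A ran against the muscle markers (r = −0.646, permutation p = 0.0169, adjusted p = 0.203). ANGPT2 had r = 0.576 with the endothelial markers (permutation p = 0.0123, adjusted p = 0.203) and −0.459 with the adipocyte markers (adjusted p = 0.54). For ADM these were 0.141 (adjusted p = 0.938) and 0.468 (adjusted p = 0.383). The r of ANGPT2 with the endothelial markers differed by diet, at 0.668 among the C pigs, −0.00402 among the DOP pigs and 0.982 among the WCOC pigs.

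Among 11132 genes, those whose level followed the set most closely across the 15 libraries, again with the diet means removed, are named as a description. EPAS1 was followed by SYT7 (r = 0.948), CHKA (r = 0.923) and the VEGFA receptor FLT1 (r = 0.917). ADM was followed by MAPK3 (r = 0.892), LZTR1 (r = 0.885) and BOK (r = 0.863), and ANGPT2 by ZNF792 (r = 0.952), PLEKHA1 (r = 0.902) and STX2 (r = 0.900). HIF1A ran with DENND6A (r = 0.890), IL6ST (r = 0.889) and TMX3 (r = 0.889), and VEGFA with ZMYND8 (r = 0.900), AKIRIN1 (r = 0.885) and MGAM2 (r = 0.869). For VEGFC the first gene was CLIC2 (r = 0.856), for PGF ACVR2A (r = 0.852), for ANGPT1 PLCB1 (r = 0.878) and for EGLN3 TUT4 (r = 0.889). All libraries share their preparation and differ in depth and tissue makeup.

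The receptors of these ligands were measured alongside them. Of the 7 VEGF and angiopoietin receptors, edgeR and limma-voom called 0 against C. DESeq2 called 1 of them in DOP vs. C and 0 in WCOC vs. C, with 3 (beside 17.6% of all genes) and 2 (beside 26.4%) at an unadjusted p under 0.05. In WCOC vs. C these were FLT1 (log2FC 0.43, adjusted p = 0.0484) and TIE1 (log2FC 0.42, adjusted p = 0.0325), both under the fold limit and named after their values were seen. Per length, the VEGFA receptor KDR was the most abundant. FLT4, the receptor of VEGFC, was lower in WCOC than in DOP (log2FC −0.97, adjusted p = 0.0157, the 1 DEG of the 7, beside 7.76% of all genes). Its log2FC was −0.82 without the muscle-rich DOP libraries (adjusted p = 0.26) and −0.80 with the flow cell as a covariate (adjusted p = 0.457). Against C, the log2FC of FLT4 was 0.83 in DOP (adjusted p = 0.0944) and −0.14 in WCOC (adjusted p = 0.735). Of the 4 adrenomedullin receptor genes (the receptor CALCRL and its partners RAMP1, RAMP2 and RAMP3), 0 were called against C by edgeR, DESeq2 or limma-voom. An unadjusted p under 0.05 was reached by 2 in DOP vs. C (beside 17.6% of all genes) and by 1 in WCOC vs. C (beside 26.4%). RAMP2 was the most abundant per length. RAMP3, which turns CALCRL into an adrenomedullin receptor, was 19.2 ± 1.93 CPM in C, 15.1 ± 1.48 CPM in DOP and 25.7 ± 3.41 CPM in WCOC. Its WCOC libraries, from 23.1 to 31.4 CPM, were all above those of C and DOP, with a log2FC of 0.42 in WCOC vs. C (adjusted p = 0.0217, under the fold limit) and 0.76 in WCOC vs. DOP (adjusted p = 0.00131, a DEG). The last call was lost while the log2FC stayed near its size, at 0.73 with the flow cell as a covariate (adjusted p = 0.255) and 0.65 without the muscle-rich DOP libraries (adjusted p = 0.0774). RAMP1, which pairs with CALCRL in the receptor for the related peptide CGRP, was lower in WCOC than in DOP (log2FC −2.93, adjusted p = 0.0353), and without the muscle-rich DOP libraries its log2FC was 0.54 (adjusted p = 0.768). RAMP1 and RAMP3 were the 2 DEGs among the 4 genes in WCOC vs. DOP, beside 7.76% of all genes.

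Around the set, 65 genes of 6 pathway lists were tested, and 2 of them were higher and 3 lower in WCOC vs. C by the DEG rule (7.69%, beside 6.25% of all genes). In DOP vs. C edgeR and limma-voom called 0 of the 65 and DESeq2 called 8, with 25 of the 65 at an unadjusted p under 0.05, beside 17.6% of all genes. Among all genes tested, edgeR called 114 in that comparison, limma-voom 19 and DESeq2 495. Of the 12 other angiogenic ligands, hepatocyte growth factor HGF was higher in WCOC, at 29.97 ± 10.1 CPM against 15.1 ± 3.71 CPM in C (log2FC 0.99 ± 0.23, adjusted p = 0.0176). Of the 7 secreted inhibitors tested, SERPINF1, which encodes the anti-angiogenic factor PEDF, was lower, at 119.1 ± 37.3 CPM against 213.5 ± 34.9 CPM (log2FC −0.84 ± 0.19, adjusted p = 0.0141). It was also lower in WCOC than in DOP, without overlap of the libraries (log2FC −0.95, adjusted p = 0.00742), a call lost with the flow cell as a covariate (log2FC −0.85, adjusted p = 0.361). Of the 12 genes of oxygen sensing, the alpha subunit HIF3A was higher, at 8.79 ± 1.59 CPM against 5.45 ± 1.37 CPM (log2FC 0.69 ± 0.21, adjusted p = 0.0498). HGF and HIF3A were of like level in DOP, at 26.9 ± 5.22 and 9.39 ± 2.34 CPM. In DOP vs. C their log2FC were 0.84 (adjusted p = 0.1005, libraries without overlap) and 0.78 (adjusted p = 0.0898), and that of SERPINF1 was 0.11 (adjusted p = 0.813). In WCOC vs. DOP the log2FC of HGF and HIF3A were 0.16 and −0.09 (adjusted p = 0.715 and 0.810). On the shared flow cell alone, HGF, SERPINF1 and HIF3A missed the threshold (adjusted p = 0.0581, 0.0502 and 0.0941) with log2FC of 1.04, −0.83 and 0.71, about as large as in the fit to all libraries. Without the macrophage-rich C replicates they also missed it (adjusted p = 0.0925, 0.101 and 0.161), with log2FC of 0.97, −0.68 and 0.74. Of the 65 genes, 3 were higher and 12 lower in WCOC than in DOP (23.1%, beside 7.76% of all genes, 2.65% higher and 5.11% lower), and 0 of the 65 were called without the muscle-rich DOP libraries or with the flow cell as a covariate. Among the ligands, PDGFA was higher (log2FC 0.69, adjusted p = 0.00742) and ANGPTL4 lower (log2FC −0.65, adjusted p = 0.0303), and among the inhibitors VASH1 (log2FC −0.98, adjusted p = 0.00412) and SPARC (log2FC −0.62, adjusted p = 0.0373) were lower beside SERPINF1. Without the muscle-rich DOP libraries the log2FC of PDGFA, ANGPTL4, VASH1 and SPARC were 0.63, −0.59, −0.96 and −0.56, close to those with all libraries. None of them was a DEG against C. In DOP vs. C their log2FC were −0.36, 0.65, 0.66 and 0.25, and in WCOC vs. C 0.33, 0.0028, −0.32 and −0.37. Per length, CXCL12, SPARC and ELOB were the most abundant genes of the ligands, the inhibitors and the oxygen sensing list.

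Most HIF target genes outside the set had a log2FC under 0 in WCOC vs. C, where ADM was higher. Of the 23 tested, 6 had a log2FC above 0 (50.7% of all genes did) and the median was −0.41, while in DOP vs. C 16 were above 0 (52.1% of all genes) and the median was 0.18. Of these 23 targets, 0 were higher and 2 lower by the DEG rule when WCOC was compared with C (6.25% of all genes were DEGs there, 3.93% lower), and DESeq2 called 3. An unadjusted p under 0.05 was reached by 10 of the 23, beside 26.4% of all genes. The libraries separated without overlap, in either direction, in 7 of the 23, beside 7.62% of all genes. All 10 macrophage markers were below 0 in the same comparison, with a median log2FC of −1.2. The target BHLHE40, a transcriptional repressor, was 94.3 ± 21.2 CPM in C and 45.3 ± 9.32 CPM in WCOC without overlap of the libraries (log2FC −1.06 ± 0.21, adjusted p = 0.0076), a call kept in all 10 fits that left out a library and in all 11 other fits. HK2, the hexokinase that opens glycolysis in insulin-sensitive tissue, was 356.9 ± 69.8 CPM in C and 230.8 ± 57.1 CPM in WCOC (log2FC −0.63 ± 0.19, adjusted p = 0.0478), kept in 2 of the 10. In WCOC vs. DOP, 1 target was higher (NDRG1) and 6 were lower, 7 of 23 beside 7.76% of all genes, and all 7 calls were lost without the muscle-rich DOP libraries. There the log2FC of the glycolytic genes shrank, from −2.61 to −0.43 for LDHA, from −1.91 to −0.36 for GAPDH (the most abundant target per length) and from −0.98 to −0.41 for PGK1, as did that of the lactate transporter SLC16A3, from −2.59 to −0.40. DDIT4, an inhibitor of mTOR signalling named after its values were seen, kept most of its difference, at −0.66 against −0.76. Neither NDRG1 nor DDIT4 was a DEG against C. The log2FC of NDRG1 was −0.86 in DOP vs. C and −0.13 in WCOC vs. C, and that of DDIT4 was 0.67 and −0.10. The part of muscle and macrophage RNA in the list's values was not tested.

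**Figure D5:**
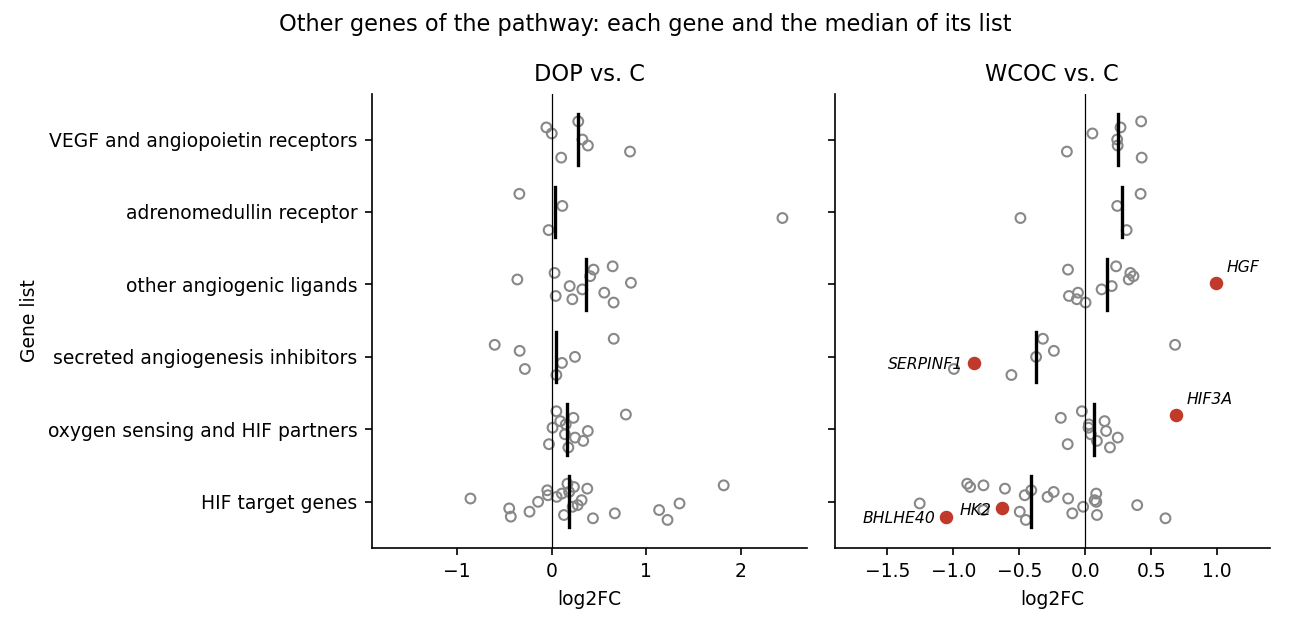
Log2FC (x axes) of each gene of the 6 pathway lists (y axis) in DOP vs. C and WCOC vs. C, with DEGs filled and named and the median of each list as a vertical bar. In WCOC vs. C the median of the HIF target genes is −0.41 and BHLHE40 and HK2 are lower, while HGF and HIF3A are higher and SERPINF1 is lower.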

How the data were processed

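Per the labels and the methods of the study, the authors aligned paired-end reads of total RNA to Sscrofa11.1 with HISAT2, set for stranded reads, and counted read pairs per Ensembl gene with HTSeq, and the values in each of the 15 files are the deposited raw counts. Tool versions and the strand setting of the counting step are not given in the sources used here. The summary lines of each file, which held 23.4 to 32.8% of pairs not assigned to a gene, were left out. Counts were filtered with filterByExpr, scaled by TMM (factors from 0.857 to 1.21) and fitted over all 3 diets with the quasi-likelihood test of edgeR 4.0.16 in R 4.3.3, two-sided, with Benjamini-Hochberg adjustment. The script was tested on simulated counts. Alternatives used DESeq2 1.42.0, limma-voom (limma 3.58.1), other scaling and filters, only the 2 diets compared, a replicate block, the flow cell as a covariate or flow cell A alone, and each library left out in turn. Leaving out the muscle-rich DOP libraries (marker sum over 5000 CPM) or the macrophage-rich C libraries (over 500 CPM), and the ratios within libraries, were added after the data were seen.

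Exonic lengths, positions and the 250-base windows came from the RefSeq annotation of Sscrofa11.1, and gene symbols from a table of Ensembl identifiers, which named 14864 of the 30477 listed and 11955 of the 14918 tested. Values per length thus combine Ensembl counts with RefSeq lengths and rank genes only approximately. Members and lists were chosen with earlier results of these data known. All members are named, along with the called genes of each list (up to 4 per list and comparison), its most abundant gene per length, and for each member up to 3 genes with the highest r (mean of at least 1 CPM). Pathway lists held 71 genes, of which 66 were matched. Relations were tested with 100000 permutations of libraries within diets. The labels name the replicates of a group without further detail, and p-values measure the spread between these pigs within 1 pen per diet.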

Additional observations from a re-analysis of the deposited data

Results flagged for a closer look

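The ADM level of DOP replicate 5 was 10.2 CPM, against 16.2 to 18.98 CPM in the other DOP libraries. Its distance to the nearest of these was 0.737 of the whole range on the log2 scale, above the critical value of 0.71 for 5 samples. Over the 9 genes and 3 diets, 27 sets of 5 values were examined and 1 was flagged, where chance flags about 1 in 20. DOP replicate 5 was also the library with the highest muscle marker sum, 43780 CPM, and its part in the ADM value was not tested.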

How the results depend on the processing

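Across the alternatives, ADM had a positive log2FC in both comparisons with C, and none of the 9 genes was called in WCOC vs. DOP. The member count in DOP vs. C became 2 with DESeq2 (ANGPT2 and ADM) and ran from 0 to 1 over fits that left out a library. In WCOC vs. C it became 0 with TMM factors computed without muscle and the 50 most abundant genes, without a filter, with the flow cell as a covariate, on flow cell A alone and without the macrophage-rich C libraries, and ran from 0 to 1 over left-out libraries. DEGs numbered 114 in DOP vs. C and became 495 with DESeq2, 19 with limma-voom, 2 with only the 2 diets in the fit, 0 without the muscle-rich DOP libraries, 0 without the macrophage-rich C libraries and 0 to 200 over left-out libraries. The 933 DEGs of WCOC vs. C became 1493 without a fold limit, 486 on flow cell A, 290 without the macrophage-rich C libraries and 468 to 1163 over left-out libraries. The 1158 of WCOC vs. DOP became 1842 without a fold limit, 1 with the flow cell as a covariate, 81 without the muscle-rich DOP libraries and 640 to 1292 over left-out libraries. The cause of these shifts was not tested. Counts under 100 for EGLN3 and PGF limit their precision.

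With the replicate number as a block, DEGs fell to 0 in DOP vs. C, 474 in WCOC vs. C and 560 in WCOC vs. DOP, and 0 of the 9 genes were called in WCOC vs. C (ADM, adjusted p = 0.0613). The numbers did not pair the pigs: deviations of same-numbered libraries correlated between −0.495 and 0.345, and 1 of 15 such pairs was the best match of its library.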
